A study of Mus musculus with 6 samples.

Results

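Fibroblast growth factors (FGFs) and their receptors were examined through 10 genes in mouse embryonic fibroblasts that lack Kdm5a. They comprise 7 genes of secreted ligands, Fgf1, Fgf2, Fgf7, Fgf9, Fgf10, Fgf18 and Fgf21, and 3 genes of receptor tyrosine kinases, Fgfr1, Fgfr2 and Fgfr3. The genes were grouped by their family. Fgf9 was in addition picked for being lower with both forms of KDM5A, so its difference from empty vector is given as a description with no test. The array annotation assigned 19 probe sets to a single gene among these, with several probe sets for 6 genes and 1 for the other 4. The 10 genes are among 18193 genes measured.

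Every culture was an immortalized KDM5A-/- fibroblast culture on a mixed strain background. The groups carried KDM5A-H483A, a mutant with alanine in place of a histidine of the catalytic centre, wild-type KDM5A, or an empty vector (EV). RNA of each of these 3 groups was hybridised to 2 arrays (Affymetrix M430 2.0), 6 in all, from subconfluent cells grown with serum. The empty vector cells lack Kdm5a as well, so both reintroductions are set against the null state and not against unmodified fibroblasts. The sources used here do not give the vector's promoter, how the cells were immortalized, or whether a line was a clone or a pool. Arrays of a group are labelled as biological replicates, but not as separate cultures or days. The p-values thus measure only the spread between these samples, which may be technical.

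FGF ligands bind receptors together with heparan sulfate chains of the cell surface. The paired receptors then phosphorylate the adaptor FRS2, which couples them to the RAS-MAPK cascade, and Sprouty proteins and the phosphatase DUSP6 restrain the signal. In embryonic organs, mesenchymal cells make FGF7 and FGF10, which act on the epithelial splice form of FGFR2, while FGF9 signals to mesenchymal splice forms of the receptors. KDM5A is a histone demethylase that removes methyl groups from lysine 4 of histone H3, a mark of active promoters, and its ARID domain is known to bind the motif CCGCCC in DNA.

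The promoter bases of 3 ligand genes are shown because Fgf9 and Fgf10 stood apart from empty vector with both KDM5A forms and Fgf7 had the only ligand probe sets with a clear signal. Each sequence is the 250 bases before a RefSeq transcript start, read 5′ to 3′ on build GRCm38.p6, with any match to CCGCCC on either strand in capitals. All 3 genes lie on the plus strand. The Fgf9 sequence covers chr14:58072436-58072685, the Fgf10 sequence chr13:118714449-118714698 and the Fgf7 sequence chr2:126034408-126034657. The Fgf10 and Fgf7 windows end at the base before the annotated gene, while the Fgf9 window lies inside the annotated gene (chr14:58070671-58112854), before a transcript start within it.
Fgf9: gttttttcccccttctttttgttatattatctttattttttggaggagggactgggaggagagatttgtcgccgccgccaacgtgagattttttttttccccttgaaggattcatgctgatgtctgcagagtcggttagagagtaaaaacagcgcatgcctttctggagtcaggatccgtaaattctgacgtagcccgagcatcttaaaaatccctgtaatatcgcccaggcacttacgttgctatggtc
Fgf10: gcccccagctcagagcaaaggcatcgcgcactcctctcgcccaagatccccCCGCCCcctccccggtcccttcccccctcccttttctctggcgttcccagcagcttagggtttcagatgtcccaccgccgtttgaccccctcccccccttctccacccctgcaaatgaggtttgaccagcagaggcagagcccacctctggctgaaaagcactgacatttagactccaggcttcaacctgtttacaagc
Fgf7: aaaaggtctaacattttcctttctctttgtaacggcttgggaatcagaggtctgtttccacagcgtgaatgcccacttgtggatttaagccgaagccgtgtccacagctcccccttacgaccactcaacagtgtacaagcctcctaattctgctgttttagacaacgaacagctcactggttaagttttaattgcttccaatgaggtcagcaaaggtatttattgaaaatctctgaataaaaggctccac
Fgf10 held 1 match, which begins 199 bases before the start. The Fgf9 and Fgf7 sequences held none, which says only that these letters are not in the window. Over 8 genes of the set with a promoter sequence here, 6 of 9 promoters held a match, against 32.7% of 32851 mouse promoters. Fgfr3 entered with both of its promoters, each with a match. The motif holds only C and G. Promoters with a match had 59.6% to 77.2% of these bases, and those without had 43.6% to 44.8%. The part of base composition in the share was not tested. These counts describe the sequence, and no array value measures binding.

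Fgf9 had lower values with both KDM5A forms than with empty vector in its brighter probe set (1438718_at). On the log2 scale the values were 4.76 and 4.28 with KDM5A-H483A, 4.42 and 4.46 with wild-type KDM5A, against 5.21 and 5.40 with empty vector. Both empty vector arrays lay above all 4 arrays with KDM5A, and the KDM5A groups overlapped each other. The differences from empty vector were -0.78 with KDM5A-H483A, 1.72-fold lower, and -0.87 with wild-type KDM5A, 1.83-fold lower. Fewer cells with Fgf9 RNA and less RNA per cell cannot be told apart in such bulk samples.

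A second Fgf9 probe set (1420795_at) did not follow this pattern. It stood at 4.71 and 4.56 with KDM5A-H483A, 4.75 and 4.50 with wild-type KDM5A, against 4.52 and 4.60 with empty vector, and all groups overlapped. Its differences from empty vector were 0.07 with KDM5A-H483A and 0.06 with wild-type KDM5A. With both probe sets averaged, the Fgf9 differences from empty vector were -0.36 and -0.40 for KDM5A-H483A and wild-type KDM5A, smaller than in the brighter probe set alone. Between the KDM5A forms, which is not the contrast that picked the gene, Fgf9 differed by 0.08 (95% CI -0.36 to 0.53, limma adjusted p = 0.963). The interval holds 0 and reaches 0.53, so it does not show that both forms gave the same level. Without the first KDM5A-H483A array this difference was -0.16, and without the second 0.33, so its direction rested on a single array.

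Signal strength limits what the Fgf9 values can carry. As a rough guide, 44 probe sets of olfactory receptor genes, which are not known for a role in fibroblasts, had means between 2.37 and 6.71 with a 95th percentile of 5.26. The brighter Fgf9 probe set stood below that percentile at 4.52 ± 0.34 with KDM5A-H483A and 4.44 ± 0.03 with wild-type KDM5A, and near it at 5.31 ± 0.13 with empty vector (SD, n = 2 each). Averaged over the 6 arrays, 8 of the 19 probe sets lay above the percentile, all of them from Fgf7, Fgfr1, Fgfr2 and Fgfr3. The remaining 6 genes had none above it. An RMA value also depends on how strongly its own probes bind, so no order between genes is drawn from these levels.

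**Figure D1:**
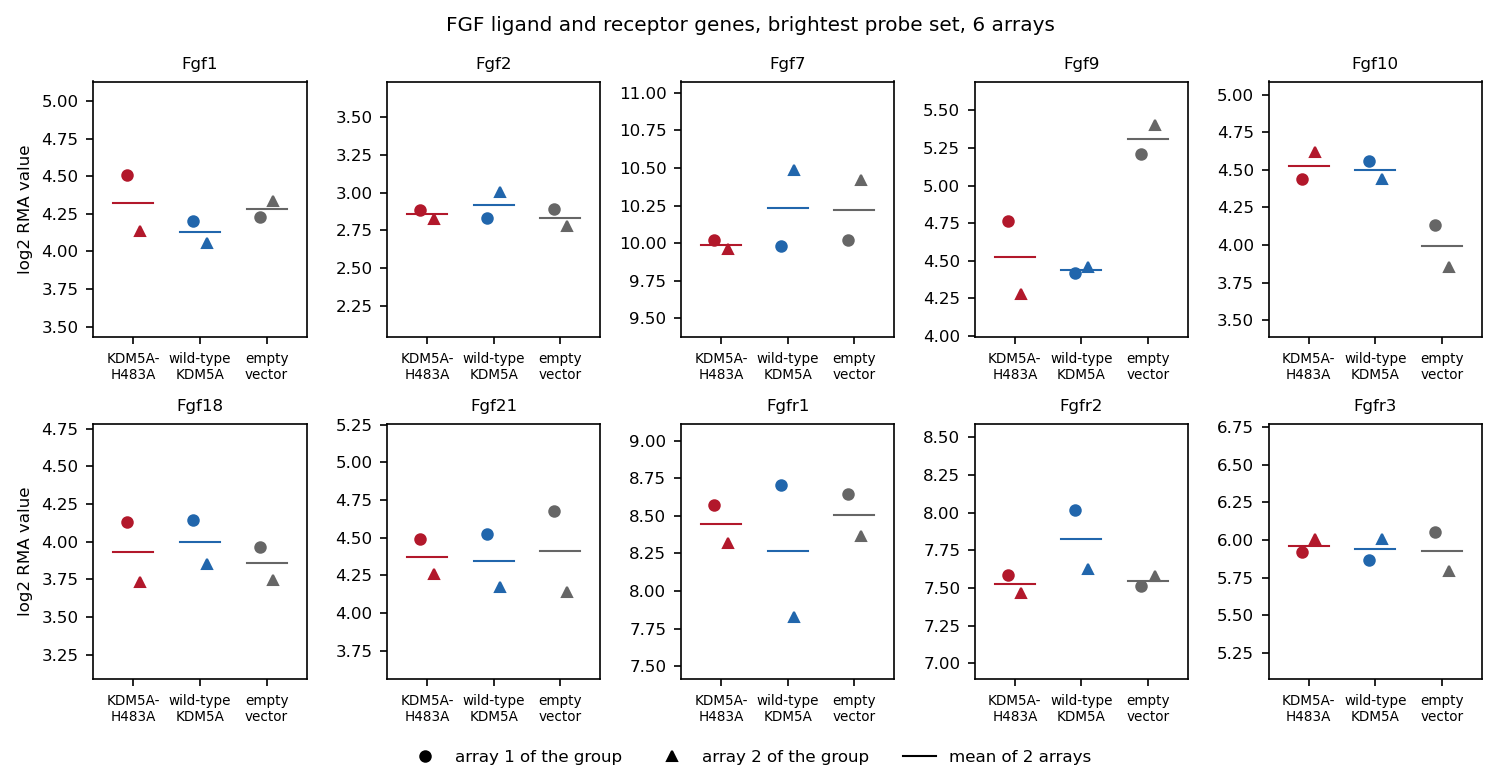
Log2 RMA values of the brightest probe set of each of the 10 genes in the 6 arrays, by group, with circles and triangles for the first and second array of a group and a bar at the mean of its 2 arrays. Every panel spans the same height on its own level, and Fgf9 and Fgf10 are the panels where both empty vector arrays lie to the same side of all 4 arrays with KDM5A.

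Fgf10, a ligand of lung and limb bud mesenchyme, had higher values with both KDM5A forms. Its single probe set (1420690_at) stood at 4.44 and 4.62 with KDM5A-H483A, 4.56 and 4.44 with wild-type KDM5A, against 4.13 and 3.85 with empty vector. Both empty vector arrays lay below all 4 others. The log2 fold change was 0.54 for KDM5A-H483A against empty vector (95% CI 0.17 to 0.90, SE 0.15, limma unadjusted p = 0.0107, limma adjusted p = 0.999). For wild-type KDM5A against empty vector it was 0.51 (95% CI 0.14 to 0.87, SE 0.15, limma unadjusted p = 0.0137, limma adjusted p = 1). Neither difference passed the threshold of 0.05 over all genes, and both comparisons share the empty vector arrays.

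Between the KDM5A forms Fgf10 differed by 0.03 (95% CI -0.33 to 0.39, limma adjusted p = 0.986). Without the second empty vector array the Fgf10 difference from empty vector was 0.40 for KDM5A-H483A (limma unadjusted p = 0.0781) and 0.37 for wild-type KDM5A (limma unadjusted p = 0.0961). Without the second KDM5A-H483A array it was 0.44 for that form (limma unadjusted p = 0.0519), and without the first wild-type KDM5A array 0.44 for wild-type KDM5A (limma unadjusted p = 0.0657). The direction against empty vector stayed the same under each of the 12 alternatives that gave a Fgf10 value. Most of them could not have changed it. Leaving out an array cannot reverse groups that do not overlap, and most other fits keep the same group means. Cyclic loess, which changes the values themselves, gave 0.56 with KDM5A-H483A and 0.54 with wild-type KDM5A. All 6 Fgf10 values lay below the olfactory receptor percentile of 5.26.

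Fgf7, known as keratinocyte growth factor, gave a signal well above that percentile in both of its probe sets, which disagreed on direction. The brighter (1438405_at) stood at 10.02 and 9.96 with KDM5A-H483A, 9.98 and 10.49 with wild-type KDM5A, against 10.02 and 10.42 with empty vector. The KDM5A-H483A arrays lay just under the lower empty vector array, with a log2 fold change of -0.23 (95% CI -0.75 to 0.28, limma adjusted p = 0.999).

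The dimmer Fgf7 probe set (1422243_at) stood at 7.30 and 7.69 with KDM5A-H483A, 7.26 and 7.25 with wild-type KDM5A, against 7.42 and 7.02 with empty vector. Here the same comparison gave 0.27 (95% CI -0.18 to 0.73, limma adjusted p = 1 over all probe sets), with overlapping arrays. Wild-type KDM5A differed from empty vector by 0.01 (95% CI -0.50 to 0.53) in the brighter probe set and 0.03 (95% CI -0.42 to 0.49) in the dimmer.

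The other ligand genes stayed at low signal in every array. Fgf1, which binds all receptors of the family, lay between 4.05 and 4.51 in its brightest probe set (1450869_at). Both of its wild-type KDM5A arrays, at 4.20 and 4.05, were below the empty vector arrays at 4.23 and 4.34, a log2 fold change of -0.15 (95% CI -0.54 to 0.23, limma adjusted p = 1). The KDM5A-H483A arrays at 4.51 and 4.14 lay on either side of empty vector. Its remaining 2 probe sets differed from empty vector by 0.09 and -0.04 with wild-type KDM5A, so the separation did not recur in the dimmer ones.

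Fgf2, the basic FGF widely used as a mitogen of cultured fibroblasts, was covered by 1 probe set (1449826_a_at) with values from 2.78 to 3.003. The highest was a wild-type KDM5A array and the lowest an empty vector array, and all groups overlapped. Its log2 fold changes from empty vector were 0.02 (95% CI -0.28 to 0.33) with KDM5A-H483A and 0.08 (95% CI -0.22 to 0.39) with wild-type KDM5A.

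Fgf18, a regulator of bone and cartilage growth, stood at 4.13 and 3.73 with KDM5A-H483A, 4.14 and 3.85 with wild-type KDM5A, against 3.97 and 3.75 with empty vector. Fgf21, a liver hormone that acts through the co-receptor beta-klotho, stood at 4.49 and 4.26 with KDM5A-H483A, 4.52 and 4.17 with wild-type KDM5A, against 4.68 and 4.14 with empty vector. In both genes the first array exceeded the second in each group and the groups overlapped. Their log2 fold changes from empty vector lay between -0.06 and 0.14, with confidence intervals that reached 0.60 to either side (limma adjusted p of at least 0.999).

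Fgfr1, the main FGF receptor of mesenchymal cells, gave a clear signal and differed more between the 2 wild-type KDM5A arrays than between groups. Its brightest probe set (1424050_s_at) stood at 8.57 and 8.32 with KDM5A-H483A, 8.70 and 7.83 with wild-type KDM5A, against 8.64 and 8.37 with empty vector. The second wild-type KDM5A array was the lowest of all 6, and the groups overlapped. A gap as wide as 0.88 between the wild-type KDM5A arrays was reached by 2.72% of genes.

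The gap recurred in both other Fgfr1 probe sets. One of them (1425911_a_at) stood at 5.93 and 5.05 with KDM5A-H483A, 5.95 and 4.61 with wild-type KDM5A, against 5.25 and 5.25 with empty vector. The remaining probe set (1436551_at) stood at 6.05 and 5.71 with KDM5A-H483A, 6.39 and 5.94 with wild-type KDM5A, against 6.14 and 6.14 with empty vector. There both KDM5A-H483A arrays lay below empty vector, by -0.26 on average (95% CI -0.72 to 0.20, limma adjusted p = 1 over all probe sets). In both KDM5A groups the first array exceeded the second in all Fgfr1 probe sets, while the empty vector arrays were level in the dimmer ones.

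The log2 fold change of Fgfr1 from empty vector was -0.06 (95% CI -0.75 to 0.64) with KDM5A-H483A and -0.24 (95% CI -0.94 to 0.46) with wild-type KDM5A (limma adjusted p of at least 0.999). Leaving out the second wild-type KDM5A array gave 0.20, and leaving out the first gave -0.68, so a single array set the direction. Most fibroblast markers were also higher in the first array of a group. Of 13 such markers, the first array exceeded the second in 9 with KDM5A-H483A, 13 with wild-type KDM5A and 11 with empty vector. Over all genes this held for 50.3%, 52.5% and 50.3% in the same order. For the markers, the first minus the second array ranged from -0.58 to 2.66 with KDM5A-H483A, from 0.05 to 2.62 with wild-type KDM5A and from -0.16 to 1.03 with empty vector. The median absolute gap over all genes was 0.19, 0.18 and 0.13 in these groups. Vim, Thy1, Prrx1 and S100a4 were the 4 markers higher in the second KDM5A-H483A array. The collagen gene Col3a1 had the widest gap in both KDM5A groups, at 12.90 and 10.24 with KDM5A-H483A, 13.13 and 10.51 with wild-type KDM5A, against 12.70 and 12.35 with empty vector. The part of these markers in the Fgfr1 result was not tested.

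**Figure D2:**
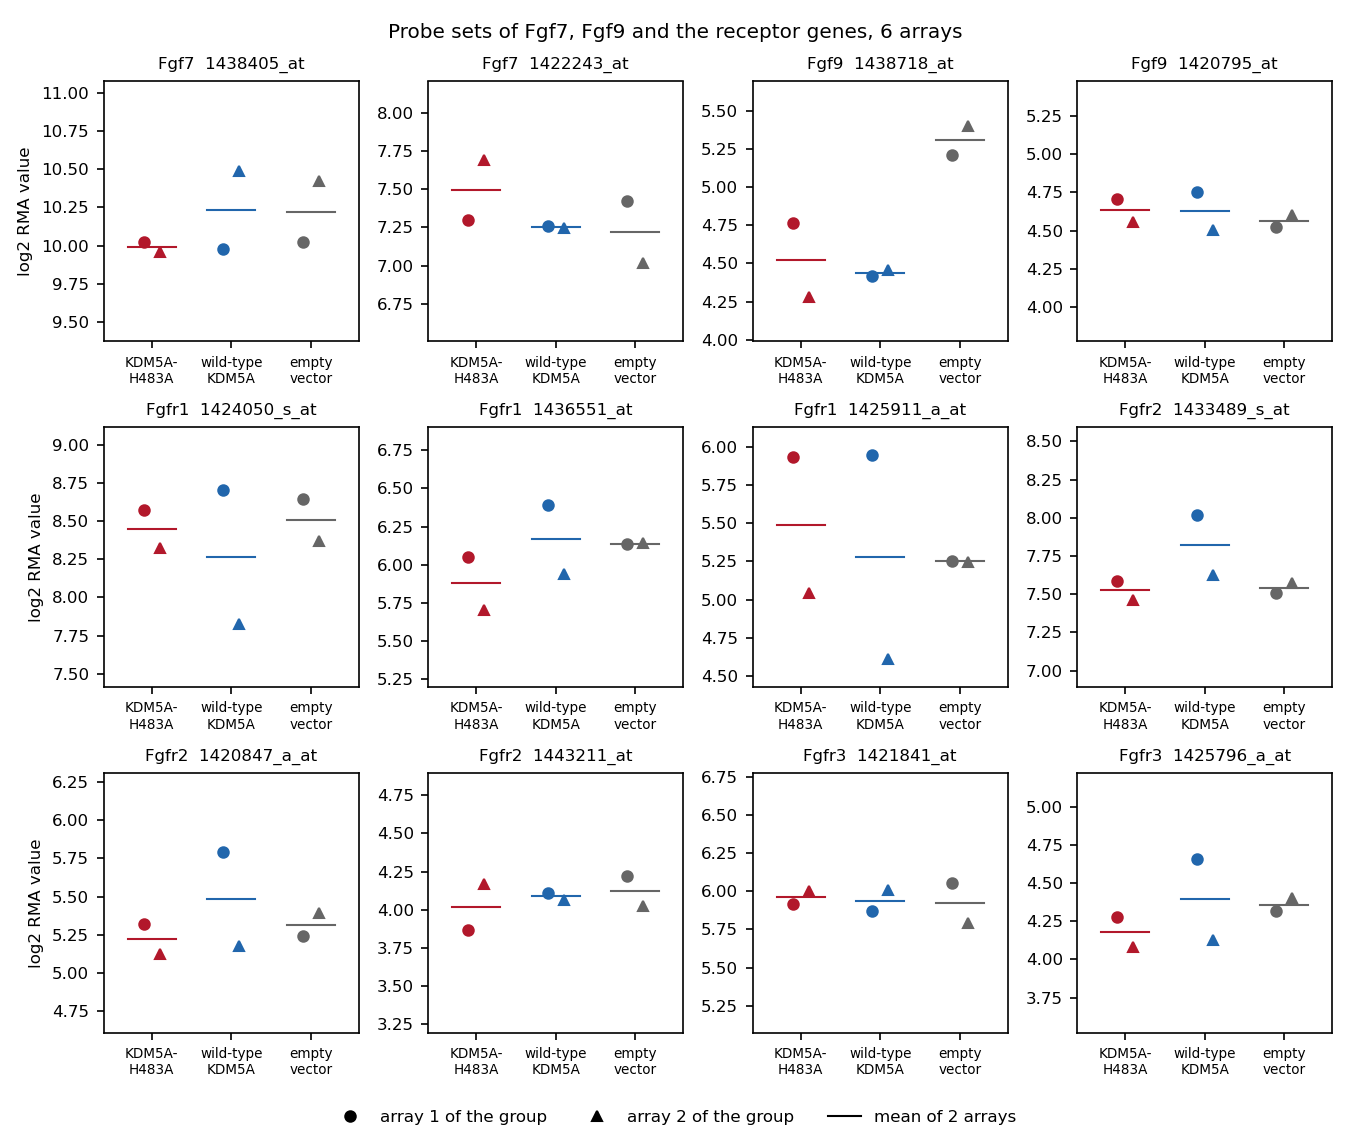
Log2 RMA values of every probe set of Fgf7, Fgf9, Fgfr1, Fgfr2 and Fgfr3 in the 6 arrays, by group, with circles and triangles for the first and second array and a bar at the mean of 2 arrays. The Fgf9 separation appears in 1438718_at and not in 1420795_at, and the first KDM5A array lies above the second in each Fgfr1 panel.

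Fgfr2, the receptor whose splice forms separate epithelial from mesenchymal FGF responses, had its highest values in the wild-type KDM5A arrays, a difference that did not pass the test. Its brightest probe set (1433489_s_at) stood at 7.59 and 7.47 with KDM5A-H483A, 8.02 and 7.63 with wild-type KDM5A, against 7.51 and 7.58 with empty vector. Both wild-type KDM5A arrays lay above all 4 others, the lower of them by a small margin. Wild-type KDM5A differed from empty vector by 0.28 (SE 0.16, 95% CI -0.11 to 0.67, limma adjusted p = 1). KDM5A-H483A differed from wild-type KDM5A by -0.30 (SE 0.16, 95% CI -0.69 to 0.10, limma adjusted p = 0.928) and from empty vector by -0.02 (95% CI -0.41 to 0.38).

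A second Fgfr2 probe set (1420847_a_at) stood at 5.32 and 5.13 with KDM5A-H483A, 5.79 and 5.18 with wild-type KDM5A, against 5.24 and 5.39 with empty vector. Here the lower wild-type KDM5A array fell among the others, and the third probe set (1443211_at) lay between 3.87 and 4.22 without separation. Without the first wild-type KDM5A array, the brightest probe set differed from empty vector by 0.08, and without the second by 0.48.

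Fgfr3, a receptor best known for restraining cartilage growth, stood at 5.92 and 6.01 with KDM5A-H483A, 5.87 and 6.01 with wild-type KDM5A, against 6.05 and 5.79 with empty vector (1421841_at). Its groups overlapped, and it differed from empty vector by 0.04 with KDM5A-H483A (95% CI -0.30 to 0.38) and by 0.01 with wild-type KDM5A (95% CI -0.33 to 0.36). In a dimmer Fgfr3 probe set (1425796_a_at) both KDM5A-H483A arrays lay below empty vector, at a log2 fold change of -0.18 (95% CI -0.64 to 0.28), and wild-type KDM5A overlapped it at 0.03. Across the 8 receptor probe sets, the first array exceeded the second in 6 with KDM5A-H483A, 7 with wild-type KDM5A and 4 with empty vector. These probe sets come from only 3 genes and are not separate observations. Across all 19 probe sets of the 10 genes, the first array exceeded the second in 14, 14 and 9 in the same order. Over all genes, each at a single probe set, this held for 50.3% with KDM5A-H483A, 52.5% with wild-type KDM5A and 50.3% with empty vector.

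Over the whole set, limma called 0 of the 9 tested genes for KDM5A-H483A against empty vector and 0 of 9 for wild-type KDM5A against empty vector, Fgf9 being left out of both. It called 0 of 10 between the KDM5A forms. The background was 0% of 18193 genes in each comparison, and 0% of 45037 probe sets when each was tested on its own. At an unadjusted p under 0.05, Fgf10 was the only gene of the set against empty vector, where 1.65% of all genes reached it with KDM5A-H483A and 2.52% with wild-type KDM5A. Between the KDM5A forms no gene of the set did, against 3.81% of all genes.

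Arrays of KDM5A-H483A and empty vector did not overlap for 3 of the 10 genes, Fgf7 and Fgf9 lower and Fgf10 higher, against a background of 28.2% of all genes. For wild-type KDM5A and empty vector this held for 4 genes, Fgf1 and Fgf9 lower and Fgf10 and Fgfr2 higher, against 31.8%. Between KDM5A-H483A and wild-type KDM5A it held for Fgfr2 alone, against 31% of genes. With 10 genes a single gene makes 10% of the set, and both shares against empty vector lie within 1 gene of their background. Fgf9 counts in both by its choice. The median log2 fold change of the 10 genes was 0.00, 0.01 and 0.03 in these 3 comparisons as listed, beside 0.00, 0.01 and -0.01 over all genes. Half-widths of the 95% confidence intervals had a median of 0.37 over all genes, before any adjustment for the number of genes. Most smaller changes could thus not be separated from 0 with 2 arrays a group. Larger ones also failed the adjusted threshold, such as 0.54 for Fgf10 with KDM5A-H483A against empty vector (limma adjusted p = 0.999). A gene that was not called can therefore still have changed by more than 0.37.

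**Figure D3:**
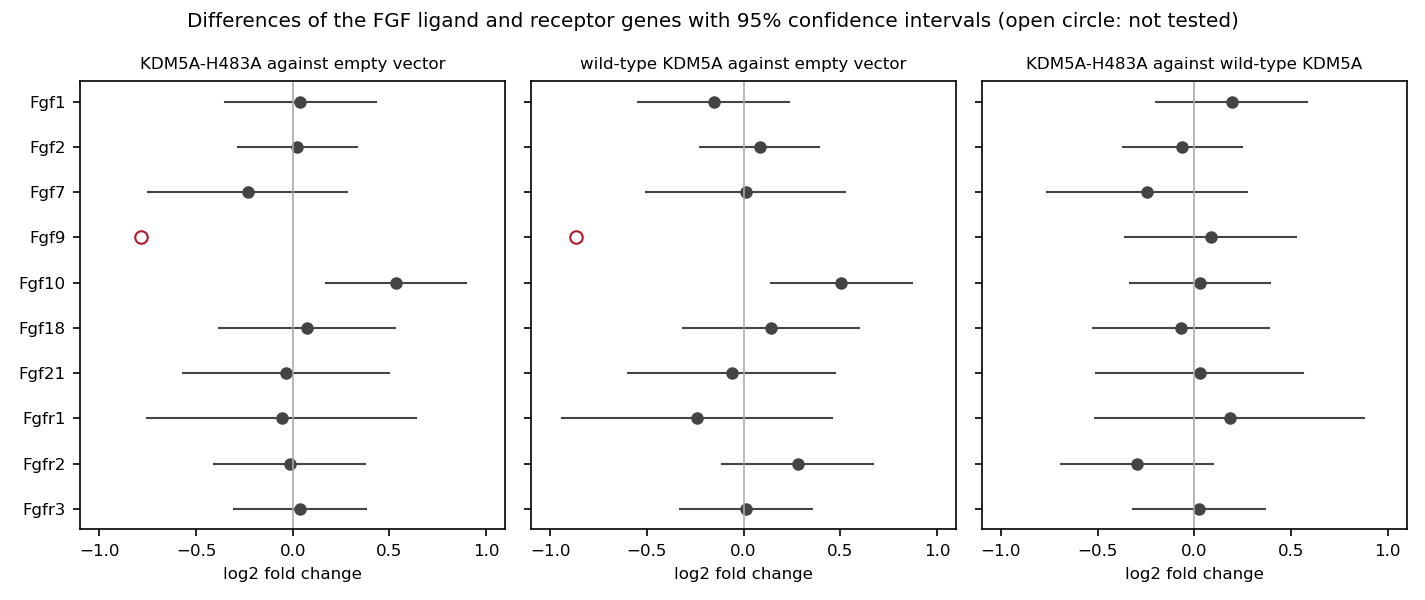
Log2 fold changes of the 10 genes in the 3 comparisons, with 95% confidence intervals from limma as lines, and open circles for Fgf9 against empty vector, which was not tested. Fgf10 is the only gene whose intervals against empty vector leave out 0, at 0.17 to 0.90 with KDM5A-H483A and 0.14 to 0.87 with wild-type KDM5A.

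Other genes of the pathway were taken from 7 lists of textbook members, in which 99 of 109 genes were measured here. None passed the threshold in either direction in any comparison, with a smallest limma adjusted p of 0.928 among them. At an unadjusted p under 0.05 there was 1 gene, 1.01% of the lists beside 1.65% of all genes, for KDM5A-H483A against empty vector. There were 5 genes, 5.05% beside 2.52% of all genes, for wild-type KDM5A against empty vector, namely Ccnd1, Dusp6, Ext1, Fgf5 and Gab1. The 4 genes between the KDM5A forms, 4.04% beside 3.81% of all genes, were Ext1, Sos1, Spred1 and Spred2. The last 3 are named after their values were seen. Groups did not overlap for 19.2%, 29.3% and 23.2% of the 99 genes in the same order of comparisons. Over all genes these shares were 28.2%, 31.8% and 31%. The 3 genes whose differences are given below for each list were those with the smallest unadjusted p against empty vector. Their p-values and intervals against empty vector follow in part from this choice and are descriptions only. For the counts by sign that follow, 50.2% of all genes lay above 0 with KDM5A-H483A and 51.3% with wild-type KDM5A against empty vector, and 48.4% between the KDM5A forms.

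Among targets of FGF signalling, Ccnd1, the cyclin D1 gene that drives entry into the cell cycle, was the gene with an unadjusted p under 0.05 against empty vector with both forms. It stood at 10.54 and 10.72 with KDM5A-H483A, 10.51 and 10.44 with wild-type KDM5A, against 10.02 and 9.98 with empty vector, so no groups overlapped. The log2 fold change from empty vector was 0.63 (95% CI 0.32 to 0.93, limma adjusted p = 0.999) with KDM5A-H483A and 0.47 (95% CI 0.17 to 0.78, limma adjusted p = 1) with wild-type KDM5A. Etv5, an ETS factor induced by FGF, stood at 6.46 and 7.03 with KDM5A-H483A, 6.59 and 6.56 with wild-type KDM5A, against 6.39 and 6.06 with empty vector. All 4 KDM5A arrays lay above empty vector, at log2 fold changes of 0.52 (limma adjusted p = 0.999) and 0.35 (limma adjusted p = 1). Its relative Etv4 differed by 0.01 with KDM5A-H483A and -0.20 with wild-type KDM5A. Of the 10 measured targets, 8 lay above 0 with KDM5A-H483A (median 0.12) and 6 with wild-type KDM5A (median 0.16).

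Among feedback inhibitors, 6 of 13 lay above 0 with KDM5A-H483A, with a median of -0.04, and 12 of 13 with wild-type KDM5A, with a median of 0.15. The median of all genes was 0.00 and 0.01 in these comparisons. Dusp6, the MAPK phosphatase, stood at 7.80 and 7.61 with KDM5A-H483A, 8.01 and 7.55 with wild-type KDM5A, against 7.27 and 7.38 with empty vector. Against empty vector it differed by 0.38 with KDM5A-H483A (95% CI -0.06 to 0.82, limma adjusted p = 0.999) and by 0.45 with wild-type KDM5A (95% CI 0.01 to 0.89, limma adjusted p = 1). Spry2, a Sprouty inhibitor, differed by 0.08 with KDM5A-H483A and 0.45 with wild-type KDM5A. Rasa1, a RAS GTPase-activating protein, differed by -0.36 and 0.04 with these forms. Between KDM5A-H483A and wild-type KDM5A, 10 of 13 lay below 0 with a median of -0.28, beside -0.01 over all genes.

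Adaptors and signal relay genes lay above 0 for 12 of 18 with KDM5A-H483A and 15 of 18 with wild-type KDM5A, with medians of 0.04 and 0.09. Gab1, a docking protein of receptor kinases, differed from empty vector by 0.13 with KDM5A-H483A (95% CI -0.39 to 0.64) and by 0.58 with wild-type KDM5A (95% CI 0.06 to 1.09, limma adjusted p = 1). The kinase gene Map2k1 had 0.00 and 0.43, and the lipid kinase gene Pik3ca had -0.29 and -0.11 with these forms. Heparan sulfate genes divided as 10 of 25 above 0 with KDM5A-H483A (median -0.07) and 16 of 25 with wild-type KDM5A (median 0.06).

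Ext1, a polymerase of heparan sulfate chains, stood at 9.38 and 9.60 with KDM5A-H483A, 8.89 and 9.23 with wild-type KDM5A, against 9.44 and 9.49 with empty vector. The wild-type KDM5A arrays lay below all others, at -0.41 from empty vector (95% CI -0.79 to -0.03, limma adjusted p = 1), and KDM5A-H483A lay 0.43 above wild-type KDM5A (95% CI 0.05 to 0.82, limma adjusted p = 0.928). The syndecan gene Sdc4, which encodes a heparan sulfate proteoglycan of the cell surface, had -0.08 and -0.30 against empty vector with KDM5A-H483A and wild-type KDM5A. The epimerase gene Glce, which acts on the same chains, had -0.39 and -0.07.

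Of the 15 other ligand genes, Fgf4 alone had a mean above the olfactory receptor percentile. Fgf5, a ligand that ends the growth phase of hair follicles, stood at 4.71 and 4.45 with KDM5A-H483A, 4.47 and 4.18 with wild-type KDM5A, against 4.64 and 5.16 with empty vector. The wild-type KDM5A arrays lay below both empty vector arrays at -0.57 (95% CI -1.09 to -0.06, limma adjusted p = 1), while KDM5A-H483A overlapped them at -0.32 (95% CI -0.84 to 0.20). Fgf14 and Fgf4 had log2 fold changes of 0.18 and -0.01 with KDM5A-H483A, and 0.25 and -0.14 with wild-type KDM5A. The list median was -0.01 with KDM5A-H483A and 0.01 with wild-type KDM5A.

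Co-receptors and other receptors had medians of 0.00 with KDM5A-H483A and -0.03 with wild-type KDM5A. Ncam1, an adhesion molecule that can bind FGF receptors, stood at 8.03 and 8.04 with KDM5A-H483A, 7.97 and 8.46 with wild-type KDM5A, against 8.32 and 8.67 with empty vector. Its log2 fold change was -0.46 with KDM5A-H483A (95% CI -0.95 to 0.03, limma adjusted p = 0.999) and -0.28 with wild-type KDM5A. The integrin genes Itgb3 and Itgav had 0.09 and -0.13 with KDM5A-H483A, and -0.21 and 0.17 with wild-type KDM5A. Splicing factors that act on receptor transcripts had medians of -0.03 with KDM5A-H483A and 0.00 with wild-type KDM5A, among them Rbfox2 with 0.05 and 0.23, Ptbp1 with -0.04 and -0.16, and Hnrnpa1 with -0.30 and -0.22. Esrp1, which makes the epithelial receptor splice forms, lay between 2.75 and 2.97 in all arrays. The other 7 of the 8 measured splicing factors, Esrp2 among them, had a mean above the olfactory receptor percentile. Esrp2 differed from empty vector by -0.27 with KDM5A-H483A and -0.04 with wild-type KDM5A.

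**Figure D4:**
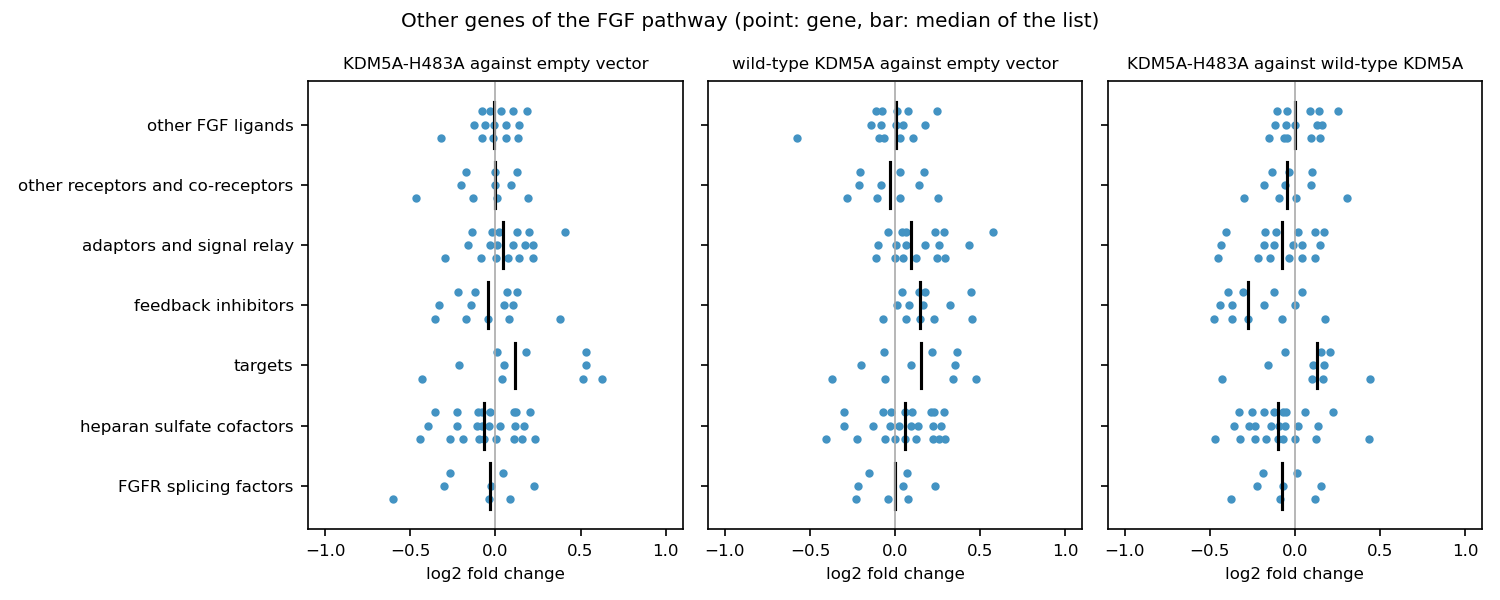
Log2 fold changes of the 99 other pathway genes in the 3 comparisons, by list, with a point for each gene and a bar at the median of the list. The median bar of the feedback inhibitors lies at -0.04 with KDM5A-H483A and at 0.15 with wild-type KDM5A against empty vector, and no gene passed the threshold.

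Fibroblast markers were checked against the labelled cell type. Of 13 mesenchymal markers, 12 exceeded the olfactory receptor percentile on all arrays, Lum alone falling below it, while the epithelial genes Cdh1 and Epcam and the leukocyte gene Ptprc stayed at or under 4.21. Markers above the percentile on all arrays also came from other lists, with 2 of 8 epithelial (Krt5, Krt8), 1 of 4 endothelial (Kdr), 1 of 4 macrophage (Csf1r), 0 of 3 muscle and 2 of 3 neural genes (Sox2, Map2).

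Genes most like Fgf9 in pattern were found by the smallest root mean square difference of centred log2 values over the 6 arrays, among 5215 genes with at least 0.5 of its range. They were Chodl, the gene of the membrane lectin chondrolectin, at 0.06, Ccn4, a matricellular gene of the WNT pathway, at 0.15, and Meox1, a homeobox factor of the somites, at 0.17, where the median gene had 0.53. Clone, RIKEN and predicted-gene symbols were passed over before this ranking, so a closer gene among those would not be named. The range of Fgf9 over the arrays, 1.12, was the widest among the brightest probe sets of the 10 genes. A dimmer Fgfr1 probe set (1425911_a_at) ranged over 1.34.

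Chodl stood at 4.88 and 4.47 with KDM5A-H483A, 4.68 and 4.77 with wild-type KDM5A, against 5.46 and 5.58 with empty vector. Ccn4 stood at 8.45 and 7.99 with KDM5A-H483A, 8.48 and 8.17 with wild-type KDM5A, against 8.996 and 8.966 with empty vector. For Meox1 the values were 6.82 and 6.41 with KDM5A-H483A, 6.81 and 6.80 with wild-type KDM5A, against 7.26 and 7.31 with empty vector. All 3 genes had both empty vector arrays above all 4 arrays with KDM5A, and they were chosen for their likeness, so this is no separate support for the Fgf9 values.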

How the data were processed

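For 6 arrays and 45101 probe sets, the values the authors deposited are on the log2 scale. The submitters' processing notes name RMA as the tool. This method subtracts background, equalises the arrays' distributions and summarises each probe set on the log2 scale, so a change in total RNA cannot be seen and differences at low signal are compressed. No version of it is stated. Values lay between 2.12 and 14.15, with array medians of 4.55 to 4.60, and were used unscaled. The number of arrays limits the precision.

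Probe sets of the array maker's 64 controls were left out. Symbols of single-gene probe sets were updated through Entrez IDs. Each gene was taken at the probe set with the highest mean, avoiding IDs ending in _x_at where another existed. Differences were tested over all 18193 genes with limma 3.58.1 in R 4.3.3 (lmFit with a mean per group, eBayes, 3 residual degrees of freedom, two-sided, Benjamini-Hochberg adjustment, threshold 0.05), and again over all 45037 probe sets. The script was tested on simulated data. Genes named from each pathway list are the 3 with the smallest unadjusted p in either comparison against empty vector, and 3 genes are named for their likeness to Fgf9. The genes, lists and rules were chosen with earlier results of these data known. Listed pathway genes outside the 99 measured were not analysed here. Promoter sequences and their coordinates are from RefSeq on GRCm38.p6, matched by symbol for 8 of the 10 genes. Alternatives were each array left out, a block for replicate number, mean of probe sets, a filter on dim genes, cyclic loess, another variance prior and fits of 2 groups.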

Additional observations from a re-analysis of the deposited data

How the results depend on the processing

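Limma called 0 genes under all 13 alternatives in each comparison, with a smallest adjusted p of 0.27 for KDM5A-H483A against empty vector, 0.511 for wild-type KDM5A against empty vector and 0.23 between the KDM5A forms. At an unadjusted p under 0.05 the main fit of 18193 genes gave 301, 459 and 694 in the same order. The filter on dim genes gave 71, 141 and 245 of 9097 genes. The fit of every probe set gave 906, 1361 and 1941 of 45037, so these counts are not alike. Counts and adjusted p-values of fits with an array of a compared group left out are not given, since that group then holds a single array. The counts above thus do not show how far they depend on 1 array. Fgf10 kept its direction against empty vector under the 12 alternatives that gave it a value. The range was 0.40 to 0.68 with KDM5A-H483A and 0.37 to 0.65 with wild-type KDM5A. Since its arrays did not overlap those of empty vector, most of these alternatives could not have reversed it. In the brightest probe set or the mean of all, Fgf1 and Fgfr2 kept theirs between wild-type KDM5A and empty vector and between the KDM5A forms. A dimmer Fgf1 probe set (1441042_at) had the opposite signs, at 0.09 and -0.10 in these comparisons. A dimmer Fgfr2 probe set (1443211_at) had -0.03 and -0.07, opposite in the first only. The remaining dimmer probe set of each gene kept the sign in both. Fgf9 was chosen for its direction against empty vector, so its range there is a description only, -1.02 to -0.36 with KDM5A-H483A and -0.96 to -0.40 with wild-type KDM5A for the brighter probe set or the mean of both. Its second probe set alone had the opposite sign, at 0.07 and 0.06. Every other difference of the set changed sign at least once. With 2 arrays in both groups compared, the smallest limma adjusted p of any tested gene of the set was 0.795. It belonged to Fgfr2 between the KDM5A forms with a replicate block. Leaving out dim genes removed Fgf1, Fgf2, Fgf9, Fgf10, Fgf18 and Fgf21 from the test.

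Replicate numbers are shared by the groups, with 2 numbers, and the labels do not say that a number marks a shared culture. Across genes, the difference between second and first array correlated at 0.02 between KDM5A-H483A and empty vector, 0.31 between wild-type KDM5A and empty vector and 0.53 between the KDM5A forms. The last 2 values show arrays of the same number deviating together, the first does not. With 2 numbers and no shared culture in the labels, the arrays were not treated as pairs. With a replicate block limma again called 0 genes in each comparison, with 501, 713 and 922 genes at an unadjusted p under 0.05, against 301, 459 and 694 without it. Arrays carry no depth, and signal near that of olfactory receptor probe sets limits what can be read from the ligand genes other than Fgf7.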
